A study of Arabidopsis thaliana with 12 samples.

Results

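The far-red response of seedlings at 26 °C was taken from 6 of the 12 arrays of a study of wild-type Arabidopsis thaliana, ecotype Columbia, in which light quality and temperature were varied independently. Aerial parts were compared at 26 °C between 3 arrays from plants under white light plus a far-red supplement (WFR 26 °C) and 3 arrays from plants under white light alone (WL 26 °C), as the array titles give them. The same pair of lights at 22 °C (WFR 22 °C and WL 22 °C, 3 arrays each) served for comparison. All plants were kept at 22 °C for 9 days, under white light without a dark period, and were moved to their condition for the last 24 h before harvest as 10-day-old plants, so that the plants of both 26 °C groups had been warm for that one day only. The labels call the arrays biological replicates and do not say that they came from separate cultures, so the p-values measure the spread between these samples.

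Plants read shade from the ratio of red to far-red light through phytochromes. Far-red light returns phytochrome to its inactive form, which frees PIF transcription factors to switch on homeodomain-leucine zipper genes, auxin synthesis and cell-wall loosening in stems and petioles. Warmth acts on part of the same machinery, since active phytochrome B reverts faster at higher temperature and PIF4 is needed for warm growth. Aux/IAA proteins are auxin-induced repressors of the auxin response, YUC enzymes make auxin, and GH3 enzymes tie auxin to amino acids.

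At 26 °C, far-red light raised 19 probe sets and lowered 1 of the 22746 that were tested (limma, Benjamini-Hochberg adjusted p under 0.05). This was 0.0879% of all probe sets, 0.0835% higher and 0.0044% lower. A single gene was known for 8 of the 20, and the other 12 are unnamed here. Among the genes that rose were the Aux/IAA gene IAA29, the shade-response homeodomain-leucine zipper gene HAT2 and the auxin-conjugating enzyme gene GH3.3. The 4 others that rose, AT4G19430, AT5G62280, AT5G12050 and AT5G22460, carry only locus numbers in the RefSeq gene table. The gene that fell was AT3G44970. In bulk tissue, a change in the number of cells that express a gene and a change in its RNA per cell cannot be told apart.

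Log2 values at 26 °C ran from 3.34 to 14.79 over the 6 arrays, and array medians were 6.95 to 6.99 on 5 of them and marginally higher on WFR replicate 3. Arrays correlated across probe sets at 0.99648 to 0.99786 within a condition and at 0.99503 to 0.99766 between the 2 conditions. The labelled tissue was checked with marker genes. The leaf gene RCA, which encodes Rubisco activase, averaged 14.46 in WFR and 14.46 in WL at 26 °C and was the 1 of 8 leaf markers with a named probe set. The root-hair expansin gene EXPA7 averaged 4.93 in WFR and 5.05 in WL, and PYK10, a beta-glucosidase of roots that seedlings also hold in their shoots, averaged 12.02 in WFR and 12.14 in WL. These were the 2 named of 10 root markers, and neither passed the test between the lights (limma, adjusted p = 0.917 and 0.893). That test does not bear on the tissue, and so few named markers cannot settle it. None of the 8 flower markers was named.

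**Figure D1:**
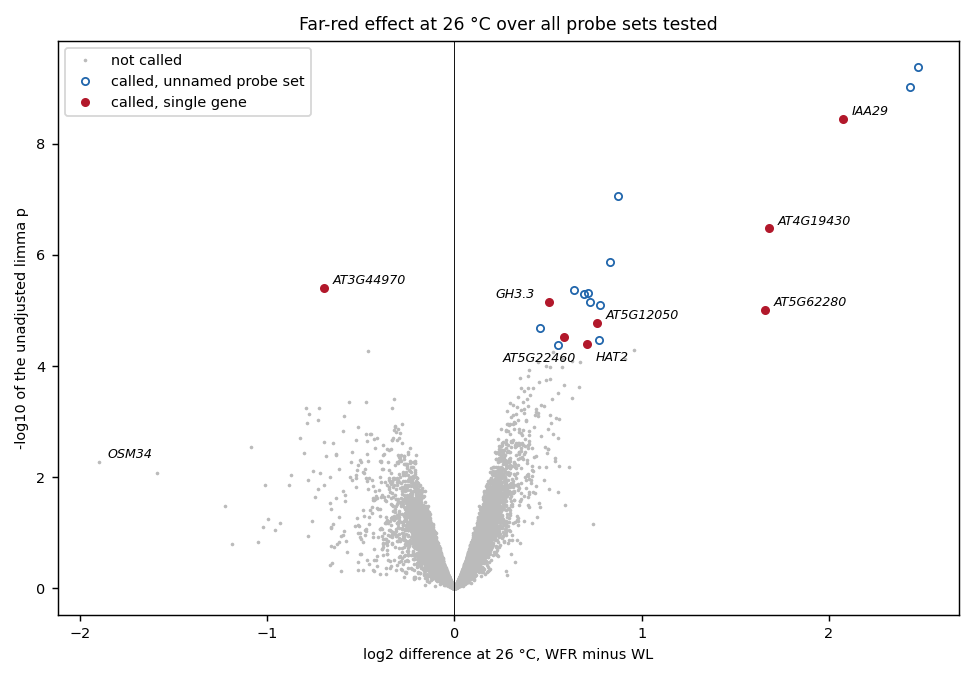
Every tested probe set at 26 °C, with the log2 difference (WFR minus WL) on the x axis and -log10 of the unadjusted limma p on the y axis. Filled red points are the 8 called genes and open blue circles the 12 called unnamed probe sets. Of the 20 called, AT3G44970 alone lies left of 0, and OSM34 has the lowest difference of all without being called.

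IAA29 and HAT2 were the named shade genes among the calls. IAA29 had log2 values of 7.88, 7.98 and 8.51 in WFR at 26 °C, against 6.23, 6.18 and 5.75 in WL at 26 °C. Every WFR array lay more than 1 log2 unit above every WL array. The means were 8.12 ± 0.34 in WFR and 6.05 ± 0.26 in WL (SD, n = 3 each), a difference of 2.07 ± 0.16 (SE) or 4.2-fold (limma, adjusted p = 2.71e-05). HAT2 had values of 9.11, 9.16 and 9.47 in WFR, against 8.53, 8.56 and 8.54 in WL. Its WL arrays were nearly identical, and the third WFR array stood above the other two. The difference was 0.71 ± 0.12, or 1.63-fold (limma, adjusted p = 0.0475).

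The 3 other named members of the shade and phytochrome A list had values near 0 and were not called. FHL, which helps carry phytochrome A into the nucleus, differed by -0.0067 ± 0.11, the bZIP factor gene HYH by -0.015 ± 0.13, and the cell-wall enzyme gene XTH33 by 0.084 ± 0.083 (limma, adjusted p = 0.995, 0.993 and 0.899). The list of 26 genes thus had 5 named members, 2 of which rose (1 under each of the 3 scalings tried, where HAT2 was not called) and none of which fell, where 0.0835% of all probe sets rose and 0.0044% fell, with a median difference of 0.084 against 0.015 over all probe sets. Of 11 genes set to be named whatever their values, among them PIL1, HFR1, XTH15, YUC8, FT, PHYA, PHYB and PIF4, only IAA29 and HAT2 had a probe set with their name.

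Larger differences than that of IAA29 were measured by a pair of unnamed probe sets. The first, 259417_at, had values of 8.12, 8.77 and 8.93 in WFR, against 6.08, 5.97 and 6.34 in WL. The difference was 2.48 ± 0.16 (limma, adjusted p = 9.46e-06). The other, 264638_at, had 7.43, 7.52 and 7.63 in WFR, against 4.99, 5.26 and 5.02 in WL, a difference of 2.43 ± 0.17 (limma, adjusted p = 1.09e-05). In both, the groups were far apart relative to their spread.

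Among auxin genes, GH3.3 had 7.74, 7.63 and 7.57 in WFR at 26 °C, against 7.27, 7.05 and 7.09 in WL at 26 °C. The groups did not overlap, and the difference was 0.51 ± 0.073, or 1.42-fold (limma, adjusted p = 0.0134). WES1, the gene of the related enzyme GH3.5, had 8.52, 8.37 and 8.81 in WFR, against 8.03, 7.87 and 7.91 in WL. Its difference of 0.63 ± 0.11 was larger than that of GH3.3 and did not pass (limma, adjusted p = 0.0698). YUC2 had 6.60, 6.49 and 6.55 in WFR, against 6.25, 6.10 and 6.19 in WL, with a difference of 0.37 ± 0.077 that did not pass (limma, adjusted p = 0.146).

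The list of 30 genes of auxin synthesis, conjugation and transport had 8 named members. Like the other lists it was chosen with earlier results of these data known, so its counts are a description. GH3.3 was the 1 that rose and none fell. An unadjusted p under 0.05 with a positive difference was found for 4 of the 8, where 4.49% of all probe sets had one, 2.32% a negative difference at that p, and 6.81% either. All 3 WFR arrays lay above all 3 WL arrays for GH3.3, WES1 and YUC2, 3 of the 8, where 9.17% of all probe sets had this order, 5.17% the opposite one, and 14.3% either. Differences in this list ran from -0.019 to 0.63 with a median of 0.30. Of the remaining members, the protein kinase gene WAG2, named here after its values were seen, differed by 0.36 ± 0.10 (limma, adjusted p = 0.400), GH3.17 differed by 0.25 ± 0.12, and GH3.1, YUC4 and YUC6 lay within 0.02 of 0. The 7 named Aux/IAA genes were IAA29, which alone rose, and 6 others between -0.18 and 0.28. IAA20, an Aux/IAA gene without the degradation motif of the family, was the highest of these at 0.28 ± 0.10 (limma, adjusted p = 0.566). The median of the 7 was -0.062.

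The other called genes carry only locus numbers in the RefSeq gene table, and no role is given to them here. AT4G19430 had 7.49, 8.46 and 7.77 in WFR, against 6.16, 6.14 and 6.39 in WL at 26 °C, a 3.2-fold difference of 1.68 ± 0.19 (limma, adjusted p = 0.00153). AT5G62280 had 7.14, 6.31 and 7.52 in WFR, against 5.33, 5.35 and 5.31 in WL, a 3.16-fold difference of 1.66 ± 0.25 (limma, adjusted p = 0.0158). In both genes the WFR arrays were spread over about 1 log2 unit or more while the WL arrays lay close together. Standard deviations were 0.50 in WFR and 0.14 in WL for AT4G19430, and 0.62 in WFR and 0.023 in WL for AT5G62280.

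AT5G12050 had 9.41, 9.38 and 9.67 in WFR, against 8.70, 8.65 and 8.83 in WL at 26 °C, a difference of 0.76 ± 0.12 (limma, adjusted p = 0.0254). AT5G22460 had 7.62, 7.78 and 7.80 in WFR, against 7.12, 7.20 and 7.12 in WL, a difference of 0.59 ± 0.097 (limma, adjusted p = 0.0403). Both separated the 2 lights without overlap. AT3G44970, the gene that fell, had 7.85, 7.59 and 7.60 in WFR, against 8.40, 8.27 and 8.46 in WL, a difference of -0.70 ± 0.096 (limma, adjusted p = 0.0117). Its WFR arrays were all below its WL arrays.

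**Figure D2:**
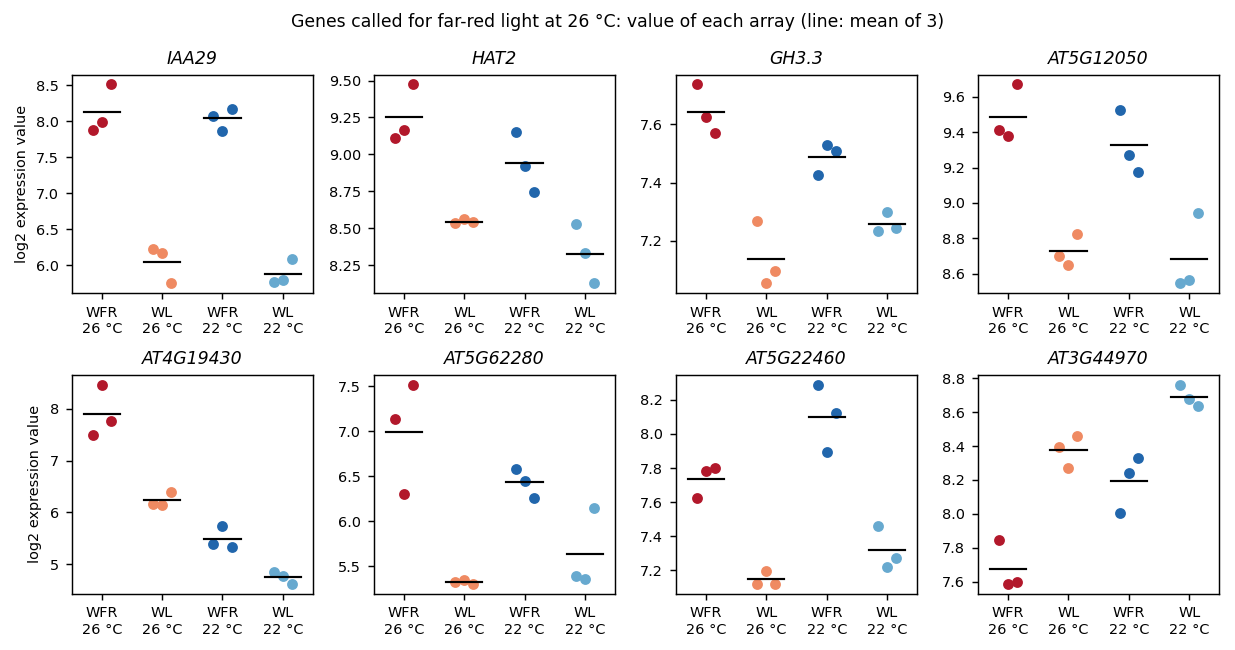
Log2 expression value (y axis) of the 8 called genes in each of the 12 arrays, grouped by light and temperature (x axis). Points are arrays in order of replicate number and lines are means of 3. The WFR arrays at 26 °C lie above the WL arrays at 26 °C in 7 genes and below them in AT3G44970, and AT4G19430 is highest in WFR at 26 °C.

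Across the 4 conditions the order of levels differed from gene to gene. IAA29 stood near 8 in both far-red groups (8.12 at 26 °C and 8.04 at 22 °C) and near 6 in both white-light groups (6.05 at 26 °C and 5.89 at 22 °C), so that its order followed light and the neighbours within a light lay within their SDs. AT4G19430 was ordered by both factors, with means of 7.91 in WFR 26 °C, 6.23 in WL 26 °C, 5.49 in WFR 22 °C and 4.75 in WL 22 °C. No array of one of these groups overlapped the next. AT3G44970 was lower in WFR than in WL at each temperature, with 7.68 in WFR 26 °C, 8.38 in WL 26 °C, 8.19 in WFR 22 °C and 8.69 in WL 22 °C, and its arrays in WL 26 °C and WFR 22 °C overlapped.

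The naming rule also took the largest differences with unadjusted p under 0.01 and groups that do not overlap, a combination met by 1.82% of all probe sets. On the higher side it added 4 genes that did not pass the test. AT2G47880 had 7.22, 7.66 and 7.76 in WFR, against 6.71, 6.53 and 6.52 in WL (0.96 ± 0.17; limma, adjusted p = 0.0555). AT1G80130 had 9.57, 9.76 and 9.77 in WFR, against 8.68, 8.96 and 8.73 in WL (0.91 ± 0.17; limma, adjusted p = 0.0679). The others were WES1 and petD, a chloroplast-encoded subunit of the cytochrome b6f complex, which had 7.42, 7.31 and 7.36 in WFR, against 6.98, 6.79 and 6.32 in WL (0.66 ± 0.14; limma, adjusted p = 0.136). For petD the WL arrays were the more scattered ones.

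On the lower side the rule added 9 genes, none of which passed (limma, adjusted p of 0.210 to 0.531). OSM34, an osmotin-like protein of the pathogenesis-related PR5 family, had the lowest difference of all probe sets, with 4.67, 5.89 and 4.79 in WFR, against 6.35, 6.59 and 8.09 in WL (-1.90 ± 0.57; limma, adjusted p = 0.433). Replicates of this gene differed by more than 1 log2 unit in every condition, with 6.30, 5.70 and 7.72 in WFR 22 °C and 7.51, 6.57 and 5.48 in WL 22 °C. The genes AT4G36430, AT5G64100, AT2G18980, AT2G23910 and AT2G34810 differed by -0.80, -0.79, -0.59, -0.52 and -0.50. XTH19 encodes a cell-wall enzyme, and DFR and UF3GT belong to anthocyanin synthesis.

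Large differences upward and downward at 26 °C differed in their scatter. All 5 probe sets with a difference of at least 1 were called, with SEs of 0.16 to 0.25. The 8 probe sets with a difference of -1 or less had SEs of 0.30 to 0.79, and none was called (limma, adjusted p of 0.386 to 0.826). Among these 8, which were picked for their size, all WFR arrays lay below all WL arrays in 3, an order that 5.17% of all probe sets had. Besides OSM34 the named one was ICL, the isocitrate lyase gene of the glyoxylate cycle, at -1.05 ± 0.68, which is named here after its values were seen.

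Flavonoid and anthocyanin genes were represented by 7 named members of 30. None was called at 26 °C by limma, and 3 were lower at an unadjusted p under 0.05, where 2.32% of all probe sets were. DFR, the dihydroflavonol reductase at the entry to anthocyanins, had 10.57, 10.54 and 10.60 in WFR, against 11.28, 11.59 and 11.0024 in WL (-0.72 ± 0.16; limma, adjusted p = 0.210). UF3GT, which adds xylose to anthocyanins, had 9.37, 9.44 and 9.59 in WFR, against 10.01, 10.31 and 10.07 in WL (-0.66 ± 0.22; limma, adjusted p = 0.531). In both, each WFR array was below each WL array.

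UGT78D2, a flavonoid glucosyltransferase, had 10.00, 9.92 and 10.05 in WFR, against 10.18, 10.40 and 10.25 in WL (-0.29 ± 0.10; limma, adjusted p = 0.551). With AT4G14090 (-0.37 ± 0.21), 4 of the 7 members had all WFR arrays below all WL arrays, an order that 5.17% of all probe sets had. The 3 others were CHIL (-0.11), BAN (0.030) and UGT78D1 (0.14), and the median of the 7 was -0.29. This list too was chosen with earlier results of these data known, so its counts are a description.

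Expansins, which loosen cell walls, had mostly positive values. Of 12 named expansin genes, 9 had positive and 3 negative differences with a median of 0.14. Of all 22746 probe sets, 12889 had a positive and 9857 a negative difference. No expansin gene was called by limma, and 3 were higher at an unadjusted p under 0.05, where 4.49% of all probe sets were. EXPA8 had 10.21, 10.23 and 10.62 in WFR, against 9.78, 9.89 and 9.86 in WL (0.51 ± 0.10; limma, adjusted p = 0.111). EXLB1 differed by 0.35 ± 0.14 and EXPA9 by 0.29 ± 0.13 (limma, adjusted p = 0.637 and 0.704). Of 7 named xyloglucan endotransglucosylase genes, whose enzymes cut and rejoin wall xyloglucan, 6 had negative differences and XTH33 a positive one, with a median of -0.11. None was called, and 2 were lower at an unadjusted p under 0.05, where 2.32% of all probe sets were. XTH19 had 5.70, 6.00 and 5.74 in WFR, against 6.17, 6.33 and 6.49 in WL (-0.51 ± 0.13; limma, adjusted p = 0.294). XTH18 differed by -0.43 ± 0.17 (limma, adjusted p = 0.636), with arrays that overlapped between the lights. Its means were low, 4.37 in WFR and 4.79 in WL, and its difference was -0.20 without WL 26 °C replicate 3.

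All 7 named cold-response genes had negative differences, from -0.58 for the dehydrin gene LTI30 to -0.14 for the dehydrin gene COR47, with a median of -0.28. Of all 22746 probe sets, 9857 had a negative difference. None was called by limma, and 0 had an unadjusted p under 0.05. COR15A and COR15B, which encode chloroplast proteins that protect membranes in the cold, differed by -0.30 ± 0.18 and -0.28 ± 0.15. All WFR arrays lay below all WL arrays in 1 of the 7, AT4G33980, where 5.17% of all probe sets had this order. The negative sign of all 7 held under quantile normalisation and cyclic loess. Median subtraction shifts every difference at 26 °C by -0.028, so it could not turn a negative sign. At 22 °C the median of the 7 cold-response genes was -0.25. LTI30 and STZ were positive there, at 0.14 and 0.11, and the other members were negative.

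Among the named members of the photosynthesis lists the differences were small. Of 28 light-harvesting and photosystem genes, the 4 named lay between -0.076 and -0.065. Of 22 chlorophyll synthesis genes, the 7 named lay between -0.085 and 0.013. None of these 11 was called by limma, and 0 had an unadjusted p under 0.05. The chloroplast gene petD, which is in neither list, differed by 0.66 ± 0.14 (limma, adjusted p = 0.136). The light-harvesting and photosystem genes stayed negative under quantile normalisation and cyclic loess, and median subtraction could not turn a negative sign. The 2 chlorophyll synthesis genes with positive values, GSA1 and HEME2, turned negative when array medians were subtracted. The 4 named heat-shock genes lay between -0.13 and 0.0034, without a call or an unadjusted p under 0.05, and their 1 positive value (Hop3, a co-chaperone) turned negative with median subtraction and cyclic loess.

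Hormone lists other than auxin had few named members. GID1C, a gibberellin receptor gene, had 6.32, 6.15 and 6.41 in WFR, against 5.83, 6.10 and 5.85 in WL (0.37 ± 0.093; limma, adjusted p = 0.309). Its homologues GID1A and GID1B had values of -0.15 and -0.14. The cytokinin response regulator gene RR16 differed by 0.22 ± 0.13 and ARR15 by -0.088 ± 0.12, and the ethylene factor gene EIN3 by 0.078 ± 0.063. WSD1, the wax ester synthase gene and the 1 named member of the wax and cuticle list, had 5.84, 6.33 and 6.14 in WFR, against 5.39, 5.64 and 5.61 in WL (0.56 ± 0.12; limma, adjusted p = 0.155). SAG101, a partner of the immune regulator EDS1, differed by 0.22 ± 0.091 (limma, adjusted p = 0.655). The clock gene GI differed by 0.29 ± 0.16, and the defence genes PDF1.2 and THI2.1 by -0.10 ± 0.79 and -0.27 ± 0.53. No brassinosteroid or abscisic acid gene was named.

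**Figure D3:**
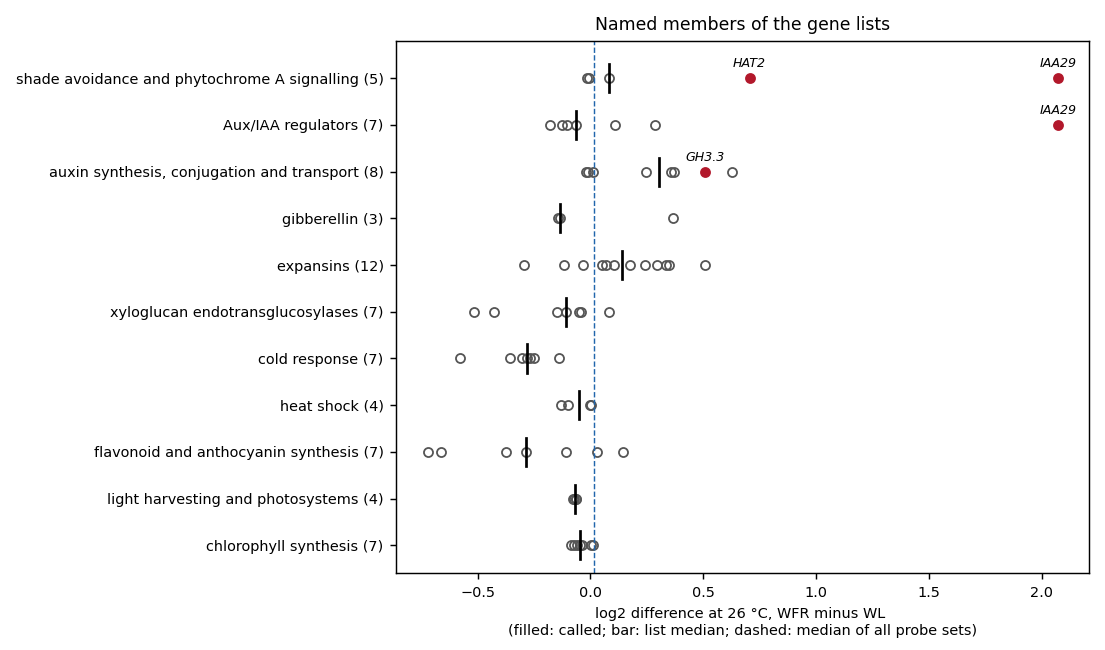
Log2 differences at 26 °C (WFR minus WL, x axis) of the named members of each gene list with at least 3 of them (rows, number of members in brackets). Filled points were called, bars are list medians and the dashed line is the median of all probe sets, 0.015. The called members are IAA29, HAT2 and GH3.3, and all 7 cold-response genes lie left of 0.

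The far-red effect was also measured at 22 °C, on arrays that the comparison at 26 °C does not use, although one fit gave the spread for both. At 22 °C, 150 probe sets or 0.659% were called, 108 (0.475%) higher and 42 (0.185%) lower. The split became 57 and 103 after median subtraction, 77 and 56 after quantile normalisation and 88 and 59 with cyclic loess. All 20 probe sets called at 26 °C had the same sign at 22 °C, and in all 20 the groups at 22 °C did not overlap in that direction, where 9.16% of all probe sets had all WFR arrays above and 7.52% below, 16.7% in all. Of the 20, 17 were called at 22 °C too, which is 85.0% of the calls at 26 °C and 11.3% of those at 22 °C. When each fit held only the 6 arrays compared, 22 probe sets were called at 26 °C, 10 at 22 °C, and 7 in both.

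The 3 calls at 26 °C that were not calls at 22 °C were AT4G19430, AT5G62280 and GH3.3. AT4G19430 differed by 1.68 ± 0.19 at 26 °C and by 0.75 ± 0.19 at 22 °C, AT5G62280 by 1.66 ± 0.25 at 26 °C and by 0.80 ± 0.25 at 22 °C, and GH3.3 by 0.51 ± 0.073 at 26 °C and by 0.23 ± 0.073 at 22 °C. The difference between the 2 temperatures was tested for each probe set as the interaction of light and temperature. It was 0.93 for AT4G19430, 0.86 for AT5G62280 and 0.28 for GH3.3, with unadjusted p of 0.00327, 0.0276 and 0.0178, and did not pass over all probe sets (limma, adjusted p = 0.902 for each). These 3 genes were chosen for a call at 26 °C without one at 22 °C, so their larger differences at 26 °C are a description. IAA29 differed by 2.07 at 26 °C and 2.15 at 22 °C, HAT2 by 0.71 at 26 °C and 0.61 at 22 °C, and AT3G44970 by -0.70 at 26 °C and -0.50 at 22 °C, with interaction terms of -0.080, 0.091 and -0.20.

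No probe set passed the interaction test, 0.0% of all, and 1254 or 5.51% had an unadjusted p under 0.05 (limma). The lowest adjusted p was 0.0891. The genes of the naming rule with negative differences at 26 °C without a call had 22 °C differences between -0.075 and 0.25, of which 5 were positive and 4 negative. They were chosen for their size at 26 °C, so their smaller values at 22 °C are a description. For EXPA8 the difference was 0.51 at 26 °C and -0.0052 at 22 °C, and the interaction had an unadjusted p of 0.00279 (limma, adjusted p = 0.902). EXPA8 was named for its p at 26 °C, so this contrast is a description too. Another expansin gene, EXLA2, named here after its values were seen, went the other way. It differed by 0.068 at 26 °C and by 0.40 at 22 °C, where it was called (interaction -0.33; limma, unadjusted p = 0.00705). The median of the 12 expansin genes was 0.14 at 26 °C and 0.20 at 22 °C. The 4 genes with positive differences without a call at 26 °C differed by 0.52 to 1.11 at 22 °C, where AT1G80130 and petD were called. Of the 150 calls at 22 °C, 136 had the same sign at 26 °C and 75 also an unadjusted p under 0.05 there. Over all probe sets, 6.81% had such a p at 26 °C in either direction. The median size of the 150 was 0.54 at 22 °C and 0.20, in the same direction, at 26 °C. They were chosen by their test at 22 °C, so their smaller size at 26 °C is a description.

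**Figure D4:**
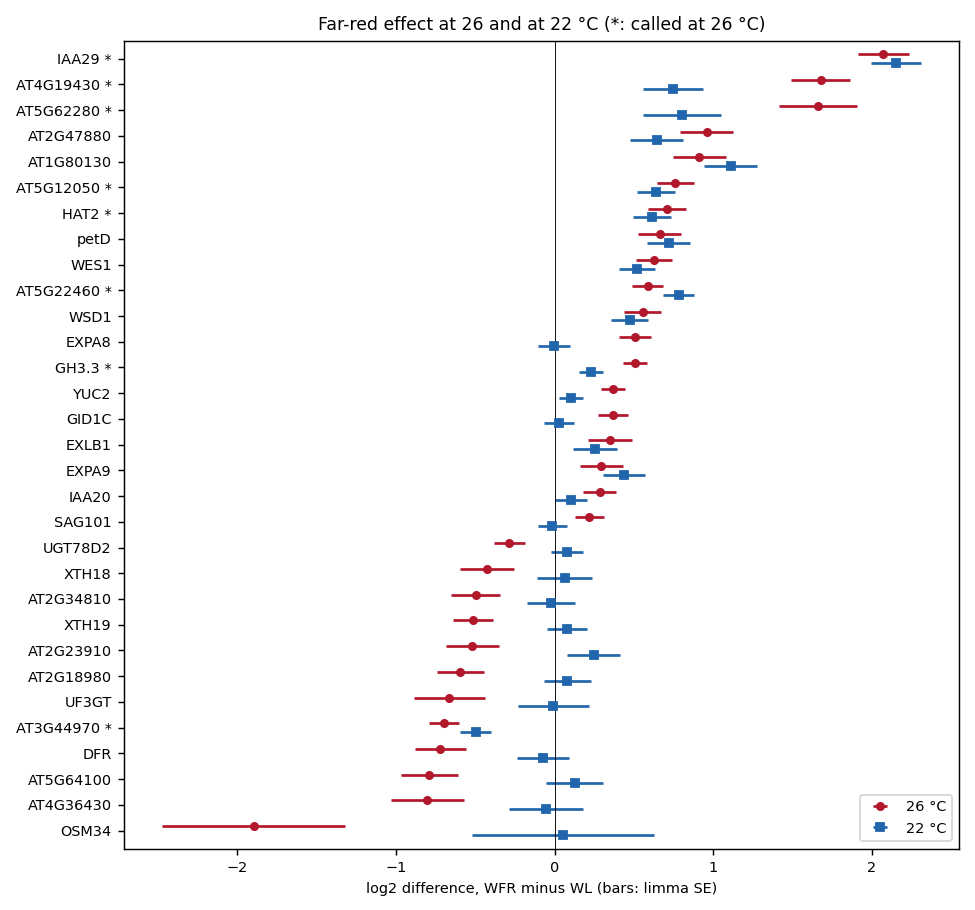
Log2 differences (WFR minus WL, x axis) of the 31 named genes at 26 °C (red circles) and 22 °C (blue squares), with the limma SE as bars. Asterisks mark the 8 genes called at 26 °C. The called genes keep their sign at 22 °C, and OSM34 has the widest bars.

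Each of the 12 arrays was left out in turn to see which calls were kept without it. IAA29 and AT4G19430 stayed called in all 12 fits, with adjusted p of at most 0.000212 and 0.0177 (limma). AT5G62280 was lost without WFR 26 °C replicate 1 or 3 or any of the WL 26 °C arrays (adjusted p of 0.0744 to 0.102), and AT5G12050 without any of the 6 arrays at 26 °C (0.05002 to 0.239). GH3.3 was lost without WFR 26 °C replicate 1 or 2 or WL 26 °C replicate 2 or 3 (0.05002 to 0.120), and AT3G44970 without WFR 26 °C replicate 2 or 3 or WL 26 °C replicate 1 or 3 (0.05002 to 0.0889). HAT2 was lost without any of the 26 °C arrays, WFR 22 °C replicate 2 or WL 22 °C replicate 2 (0.0630 to 0.367), and AT5G22460 without any of the 26 °C arrays, WFR 22 °C replicate 3, or WL 22 °C replicate 2 or 3 (0.0505 to 0.335). A sign could not change in these fits, because the WFR and WL arrays at 26 °C did not overlap for any called gene. Leaving out a 22 °C array leaves the difference at 26 °C as it is. Leaving out a 26 °C array leaves fewer arrays in its group, so a lost call need not mean that the difference rested on that array. HAT2 differed by 0.70, 0.71 and 0.70 without WL 26 °C replicates 1, 2 and 3, against 0.71 with all arrays. Without WFR 26 °C replicates 1, 2 and 3 it differed by 0.77, 0.75 and 0.59. HAT2 and AT5G22460 also lost their calls under each of the 3 scalings and with the replicate block, with adjusted p of up to 0.103 and 0.0931 (limma), and GH3.3 lost its call when the fit held only the 6 arrays at 26 °C (limma, adjusted p = 0.0696).

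The number of probe sets called at 26 °C was 20 with all arrays. It was 9, 16 and 8 without WFR 26 °C replicates 1, 2 and 3. Without WL 26 °C replicates 1, 2 and 3 it was 10, 6 and 6.

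**Figure D5:**
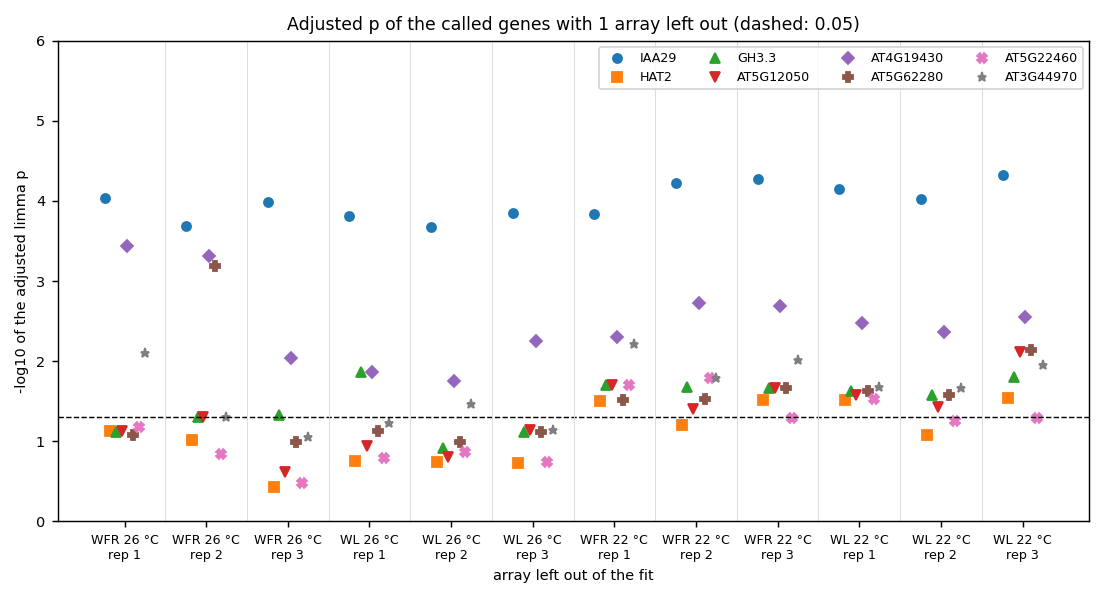
Adjusted limma p on a -log10 scale (y axis) of the 8 called genes when the array named on the x axis was left out, with the threshold of 0.05 dashed. IAA29 and AT4G19430 stay above the line in all 12 fits, and most of the other genes drop below it when an array from 26 °C is left out.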

How the data were processed

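RNA from 12 samples, 3 in each of 4 conditions, was measured on one-colour arrays. The authors deposited 1 normalised log2 value per probe set and array. RMA, affy and MAS5 are named per the submitters' processing notes, with roles not given in the sources used here. Arrays have no read depth, and their number limits the precision.

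Of 22810 probe sets, 64 AFFX controls were left out. Genes came from the platform annotation, updated through RefSeq (TAIR10.1, names only): 13513 probe sets had 1 gene (13436 through RefSeq), 503 had several and 8730 are unnamed here. With limma 3.58.1 in R 4.3.3, 1 mean per condition was fitted to all 12 arrays (8 residual degrees of freedom, 5.99 added by moderation). Tests were two-sided, adjusted by Benjamini-Hochberg over 22746 probe sets, with calls below 0.05. A difference is given with its SE. The fit was run on simulated data with known changes and independent noise for each probe set, and no result here rests on it.

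The comparison and the 22 gene lists (436 entries, 82 named) were chosen with earlier results of these data known. For genes with several probe sets, lists used the brightest. Named genes are all called genes, the 10 largest rises and 10 largest falls with unadjusted p under 0.01 and no overlap, up to 3 members per list with unadjusted p under 0.05, called interactions, 11 fixed genes, and up to 2 unnamed probe sets per direction. Alternatives were 3 scalings (array medians subtracted, quantile, cyclic loess), filters on the lowest 25% or 50% of probe sets, a variance trend, array weights, a replicate block, the compared arrays alone, and each array left out.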

Additional observations from a re-analysis of the deposited data

How the results depend on the processing

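The 31 named genes kept the sign of their difference at 26 °C under quantile normalisation, cyclic loess, array weights and any 26 °C array left out. Genes whose groups do not overlap could not change sign when an array was left out. The other alternatives could not change a sign either. Median subtraction shifts every difference at 26 °C by -0.028, and the rest leave the differences as they are. The number of probe sets called at 26 °C, 20 in the main setting, was 16 to 29 under the scalings, filters, variance trend, replicate block (16) and the fit of 6 arrays, 71 with array weights, and 6 to 22 when 1 array was left out. At 22 °C it was 150, against 398 with array weights, 84 with the replicate block, 10 in the fit of 6 arrays and 45 to 135 when 1 array was left out. The interaction had 0 calls, 2 with array weights, and 0 to 0 when 1 array was left out. The cause of these shifts was not tested. The replicate numbers gave no sign of pairing: deviations of same-numbered arrays at 26 °C correlated at -0.192 to -0.0125 across probe sets. Arrays with other numbers correlated at -0.106 to 0.225, and a shared origin under other numbers was not tested. The block therefore says nothing about pairing. Of 23 named genes that were not called, 10 were called under at least 1 alternative, 9 of them with array weights. With 3 arrays a group and no detection calls, low signals cannot be told from background.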
